A study of Mus musculus with 23 samples.

Results

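The kallikrein and trypsin-like serine proteases described here are 89 mouse genes of 53402 in the count table. They were chosen by name alone: every gene whose symbol begins with Klk, Prss, Tmprss, Cela or Try followed by a digit, except Prss16 and 11 pseudogenes. Of the 89, 88 are annotated as protein coding, and the other, Prss23os, is an antisense RNA that overlaps Prss23. They comprised 14 glandular kallikreins (Klk1 and the Klk1b genes), 12 kallikrein-related peptidases (Klk4 to Klk15), 6 trypsinogens (Prss1, Prss2, Prss3 and the Try genes), 4 elastases, 17 transmembrane proteases and 36 other Prss genes. Most lie in clusters: 67 members sat in 11 loci of at least 2 members, and the largest locus held 26 kallikrein genes at chr7:43690418-44229618 (GRCm38).

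The data are 23 bulk RNA libraries of medullary epithelial cells of the thymus (mTECs), from C57BL/6 mice that were wild type (WT) or lacked Aire (KO). Live EpCAM+ CD45- Ly51- cells were split by flow sorting on surface MHC class II into a high gate, mTEChi, and a low gate, mTEClo. The 8 WT mTEClo libraries came from 5 males and 3 females and the 7 WT mTEChi libraries from 5 males and 2 females, all aged 4 or 5 weeks. The 4 KO mTEClo and 4 KO mTEChi libraries were all male, aged 5 weeks in replicates 1 and 2 and 6 weeks in replicates 3 and 4. The labels name no allele for the knockout and do not say whether libraries came from separate animals, so p-values measure only the spread between these libraries.

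Serine proteases of the trypsin fold cut peptide bonds with a serine held in a catalytic triad, and most are made as inactive zymogens that another protease must cut. Digestive trypsins and elastases come from the acinar cells of the pancreas, glandular kallikreins from salivary glands, and kallikrein-related peptidases from skin and other lining epithelia, where they shed dead cells. In the thymus, mTECs display fragments of such tissue-restricted proteins to maturing T cells, and the nuclear protein Aire is known to switch on many of the genes in mTEChi.

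Values below are CPM, the counts of a gene brought to a common library size with TMM factors, and changes are log2 changes ± SE from 1 edgeR quasi-likelihood fit over all libraries, called at a Benjamini-Hochberg adjusted p under 0.05. Library totals ran from 1602125 to 3938588 counts. Aire itself stood at 753 to 921 CPM in WT mTEChi and at 39.0, 39.3, 21.6 and 17.1 CPM in KO mTEChi, a log2 change of −4.87. In 6 libraries, all 4 of KO mTEChi and replicates 3 and 4 of KO mTEClo, 12 genes counted in every other library were at 0. Of these, 11 are encoded by the mitochondrial genome and none is a member. In mTEChi this difference cannot be told apart from genotype, and in KO mTEClo it coincides with age.

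In mTEChi the members summed to less without Aire, and the subfamilies differed. Their summed level was 960 to 1129 CPM in WT mTEChi (n = 7) and 570 to 698 CPM in KO mTEChi (n = 4), so the groups did not overlap. Each WT mTEChi library held counts of 76 to 83 members and each KO mTEChi library of 52 to 62. Brought to the depth of the smallest library these were 75.7 to 78.3 and 48.0 to 55.4. No member was at 0 in all 7 WT mTEChi libraries, whereas 17 were at 0 in all 4 KO ones. After TMM scaling these groups held 18625876 and 10038637 counts, so zeros over a whole group come more easily in KO. The share of all genes at 0 in this way was not counted. Enough counts for a test were found for 55 members, of which 33 fell and 2 rose in KO mTEChi, against 28% and 25.7% of all 19310 tested genes. The median log2 change was −1.76 over the tested members and −0.01 over all tested genes. Of the 55, 19 had passed the filter only through the WT mTEChi libraries and so were bound to be low elsewhere. The other 36 fell in 17 cases and rose in 2, where 22.8% and 28.4% of all genes that passed in the same way fell and rose. Among these 36, all 8 kallikrein-related peptidases and 3 of 5 glandular kallikreins fell. So did 4 of 9 transmembrane proteases, 1 of 13 other Prss genes and the trypsinogen Prss2. All 34 untested members had counts in WT mTEChi, and 32 had more CPM there than in KO mTEChi, Prss46 and Prss47 being the other two. In bulk RNA, fewer cells of a type and less RNA per cell cannot be told apart.

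**Figure D1:**
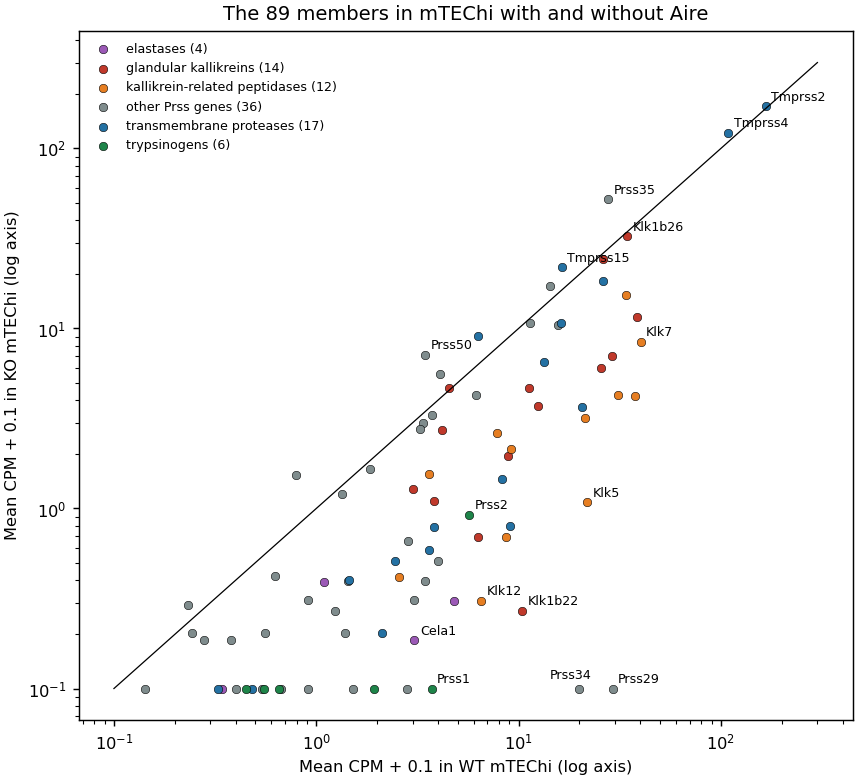
Mean CPM of the members in WT mTEChi (horizontal axis, n = 7) against KO mTEChi (vertical axis, n = 4), each plus 0.1, on log axes, with 1 point per member and the diagonal marking equal levels. Most points lie below the diagonal, 33 of the tested members having fallen and 2 having risen.

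A term for the 6 libraries takes the difference between the KO mTEClo pairs off the mTEChi effect. With it, 15 members were lower in KO mTEChi, 14 of them also lower without it, and 20 of the 35 calls were lost, those of Klk4, Klk5, Klk6, Klk9, Klk10, Klk11, Klk12, Klk1b1, Klk1b8, Prss2, Prss28, Prss29, Prss34, Prss50, Prss56, Cela3b, Tmprss5, Tmprss9, Tmprss11a and Tmprss11b. Each kept its direction. The change was at least as large as without the term for 11 of the 20, for example Klk1b8 at −5.46 and Tmprss5 at −5.52, and smaller by over 1.5-fold for 6 (Klk5, Klk6, Klk10, Klk11, Prss56 and Tmprss11a). Prss34 and Prss29, at 0 in all KO libraries of both gates, had adjusted p of 1 with fitted changes of −8.59 and −9.38.

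The glandular kallikreins are secreted by salivary gland ducts. Klk1 cuts kininogen to release kinins, and several Klk1b enzymes are known for cutting the precursors of nerve growth factor, epidermal growth factor or renin. Their summed level was 181 to 245 CPM in WT mTEChi and 80.7 to 125 CPM in KO mTEChi, without overlap. Of 12 tested genes, 8 fell and 4 passed in neither direction (Klk1b3, Klk1b11, Klk1b26 and Klk1b27), with a median log2 change of −1.84. Of the 12, 7 had passed the filter only through WT mTEChi (Klk1b3, Klk1b4, Klk1b5, Klk1b8, Klk1b9, Klk1b22 and Klk1b27). Of the other 5, 3 fell, with a median of −1.29. The 14 genes are close copies. Their longest coding transcripts were 80.4% to 94.1% identical over 91 pairs, and reads of one can be counted for another.

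The upstream sequences of 5 of these genes, 3 that fell in KO mTEChi and 2 without a call, are shown for comparison. They are the 100 bases before the RefSeq start sites (GRCm38.p6, plus strand), at chr7:44112573-44112672 (Klk1b22), chr7:43975961-43976060 (Klk1b9), chr7:44137190-44137289 (Klk1b16), chr7:43995777-43995876 (Klk1b11) and chr7:44012578-44012677 (Klk1b26). Capitals mark TTTAAA.
Klk1b22: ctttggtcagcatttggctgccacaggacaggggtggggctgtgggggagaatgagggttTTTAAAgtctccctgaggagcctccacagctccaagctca
Klk1b9: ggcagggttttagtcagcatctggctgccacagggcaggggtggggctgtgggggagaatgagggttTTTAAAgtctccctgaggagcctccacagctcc
Klk1b16: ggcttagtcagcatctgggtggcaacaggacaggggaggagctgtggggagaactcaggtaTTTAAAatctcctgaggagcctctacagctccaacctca
Klk1b11: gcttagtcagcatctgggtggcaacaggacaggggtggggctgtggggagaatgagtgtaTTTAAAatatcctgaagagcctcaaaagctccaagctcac
Klk1b26: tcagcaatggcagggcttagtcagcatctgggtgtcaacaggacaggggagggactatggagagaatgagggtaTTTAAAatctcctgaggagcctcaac
The 10 pairs among them were 81.2% to 95.7% identical, with a median of 84.2%. RefSeq promoters were found for 72 of the 89 members, 83 entries in all. On either strand of such windows TTTAAA was found for 12 of the 14 glandular kallikreins (not Klk1 and Klk1b21), in 18.1% of the members' entries and in 4.39% of 32851 promoters of all genes. The longer TATTTAAA, which contains it, was found for 3 of the 14, Klk1b11, Klk1b16 and Klk1b26, in 3.61% of the members' entries and in 0.615% of all promoters. Klk1b11 and Klk1b26 passed in neither direction in KO mTEChi and Klk1b16 fell. With the term for the 6 libraries their log2 changes were −2.92, −1.85 and −3.66 (edgeR adjusted p = 0.0645, 0.0113 and 0.000466). Klk1b27, which passed in neither direction with or without that term, had TTTAAA without the longer stretch. The part of either stretch in these changes was not tested.

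Klk1b22, known for its binding to epidermal growth factor, stood at 6.30 to 14.2 CPM in WT mTEChi (median 10.4). In KO mTEChi it was at 0, 0, 0.685 and 0 CPM. Only 2 counts remained there, a pooled ratio of 51.5 with an exact 95% counting interval of 14.1 to 428, and edgeR gave an adjusted p of 5.8e-08. Both counts lay in replicate 3, without which the log2 change was −7.92. Klk1b9, a second such gene, went from 25.5 ± 3.93 CPM (SD, n = 7) to 5.91 ± 2.41 CPM (SD, n = 4), a log2 change of −2.11 ± 0.35 (edgeR adjusted p = 1.03e-05). Klk1b16 went from a mean of 28.9 CPM to 6.94 CPM (−2.07 ± 0.36). For all 3 genes the KO libraries were all below the WT ones.

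Klk1b26, a kallikrein that binds epidermal growth factor and can cut prorenin, gave 28.4 to 42.7 CPM in WT mTEChi (median 32.3). Its KO mTEChi libraries held 26.8, 29.9, 31.1 and 42.2 CPM. The groups overlapped, and the log2 change was −0.09 ± 0.22 (edgeR adjusted p = 0.744). Klk1b11 was at means of 26.1 CPM and 24.3 CPM (−0.07 ± 0.34) and Klk1b27 at 4.41 CPM and 4.55 CPM (0.10 ± 0.34). With the term for the 6 libraries Klk1b26 had a log2 change of −1.85, with an edgeR adjusted p of 0.0113. Klk1b11 then had −2.92 (adjusted p = 0.0645) and Klk1b27 −1.32 (adjusted p = 0.329), both without a call. In a grouping made after these values were seen, Klk1b11, Klk1b26 and Klk1b27 took 30.7% to 44.6% of the CPM of all Klk1b genes in WT mTEChi and 64.4% to 73.5% in KO mTEChi.

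Klk1, the tissue kallikrein, was at 29.4 to 52.0 CPM in WT mTEChi (median 32.8). It was at 15.4, 7.77, 15.1 and 7.52 CPM in KO mTEChi. The KO libraries were all below the WT ones, and Klk1 fell by 1.93 ± 0.42 on the log2 scale (edgeR adjusted p = 0.000629). Klk1b1 stood at 10.0 to 12.6 CPM in WT mTEChi (median 11.1) and at 4.39, 6.14, 4.11 and 3.76 CPM in KO mTEChi, also without overlap, and fell by 1.29 ± 0.30 (edgeR adjusted p = 0.000609). Klk1b4, Klk1b5 and Klk1b8 fell too, with log2 changes of −2.44, −3.39 and −1.76. These genes and those above lie side by side on chromosome 7. Klk1b11, Klk1b26 and Klk1b27 are consecutive among the tested genes there, with genes that fell on both sides, and Klk1b3 lies apart from them, as the plot along the locus shows.

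**Figure D2:**
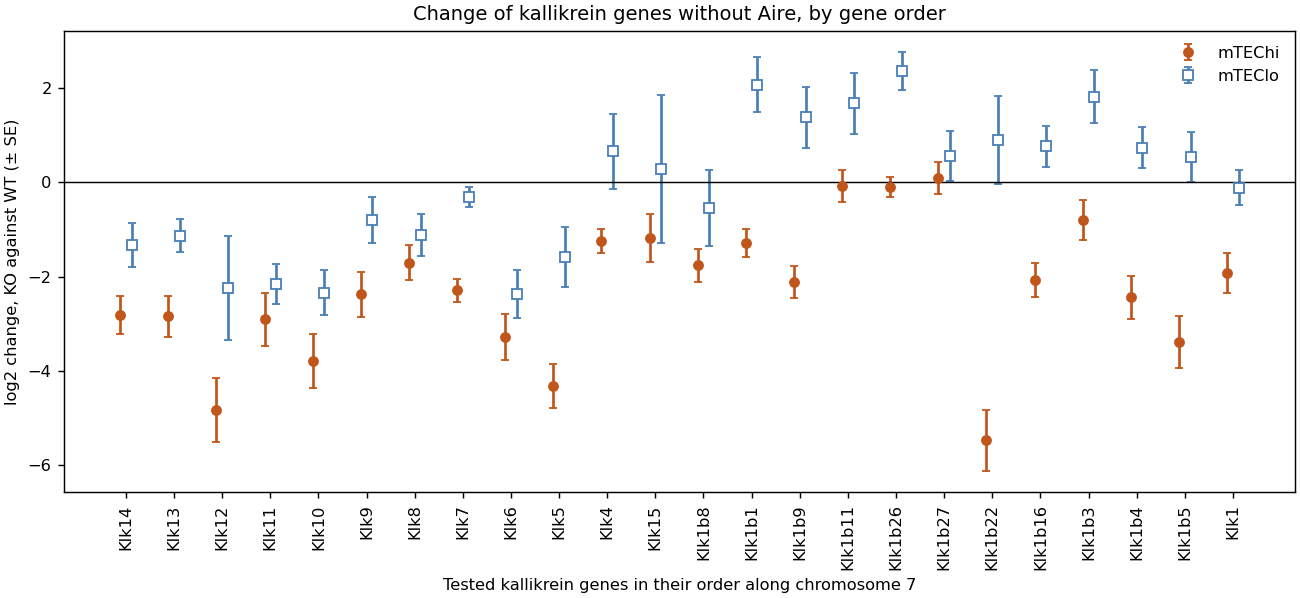
Log2 change of KO against WT (vertical axis, bars are SE) for the tested kallikrein genes in their order along the chromosome 7 locus (horizontal axis), with filled circles for mTEChi and open squares for mTEClo. In mTEChi 11 kallikrein-related peptidases and 8 glandular kallikreins fell, while Klk1b11, Klk1b26 and Klk1b27 lie near 0.

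Of the 12 kallikrein-related peptidases, 11 were lower in KO mTEChi, with a median log2 change of −2.83. In all 11 the highest KO library was below the lowest WT library, which held for 26 members and for 19.8% of all tested genes. Klk15, the only one not called, had a log2 change of −1.19 ± 0.51 (edgeR adjusted p = 0.0516). Its exons overlap the gene model Gm44756 and 47.1% of its 50-base stretches are shared with other genes, so its counts are uncertain. The summed level of the 12 was 164 to 270 CPM in WT mTEChi and 40.5 to 47.4 CPM in KO mTEChi. Without the WT mTEChi libraries 8 of the 12 would still have passed the filter, and these 8 all fell. Klk5, Klk11, Klk12 and Klk15 passed only through WT mTEChi.

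Klk5 and Klk7 are the proteases that cut corneodesmosomes so that the outer skin layer sheds. Klk5 was at 16.2 to 28.6 CPM in WT mTEChi (median 21.6) and at 0.439, 0, 3.08 and 0.418 CPM in KO mTEChi. The log2 change was −4.32 ± 0.46 (edgeR adjusted p = 1.1e-08). Replicate 3 held most of what remained, and without it the change was −6.15. Klk7 was at 29.4 to 52.6 CPM in WT mTEChi (median 42.3). Its KO mTEChi values were 6.14, 4.09, 11 and 12.1 CPM, none of which reached the lowest WT library, and it fell by 2.29 ± 0.25 (edgeR adjusted p = 1.25e-08). Klk14, a trypsin-like partner of both in skin, stood at 23.4 to 36.1 CPM (median 33.0) in WT mTEChi and at 5.70, 4.91, 2.40 and 3.76 CPM in KO mTEChi, and fell by 2.82 ± 0.40 (edgeR adjusted p = 2.42e-06). An exon of Klk14 overlaps the gene model 2310002F09Rik, and the library type keeps no strand, so these reads may be shared.

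Klk6, a peptidase abundant in the central nervous system, was at 20.4 to 48.6 CPM in WT mTEChi (median 39.3). In KO mTEChi it was at 1.75, 4.50, 8.90 and 1.25 CPM, a log2 change of −3.29 ± 0.48 (edgeR adjusted p = 6.2e-06), and of −4.08 without replicate 3. Klk10, a kallikrein of normal lining epithelium, held 5.10 to 11.8 CPM in WT mTEChi (median 8.57) and 0.878, 0.409, 0.685 and 0.418 CPM in KO mTEChi (−3.80 ± 0.57, edgeR adjusted p = 2.68e-06). For both genes all KO libraries were below all WT libraries.

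Klk12 went from 3.10 to 11.1 CPM (median 6.04) in WT mTEChi to 0, 0.409, 0 and 0.418 CPM in KO mTEChi. With 2 counts left, the pooled ratio was 34.2 with an exact 95% counting interval of 9.28 to 286. Klk11 was lower from the start, at 1.20 to 3.62 CPM (median 2.50) against 0.439, 0.409, 0 and 0.418 CPM, a pooled ratio of 8.62 (interval 2.78 to 43.3). Klk13, Klk9 and Klk8 (neuropsin, a protease of hippocampal neurons) also fell, with log2 changes of −2.85, −2.38 and −1.71. Like Klk14, Klk8 has exons that overlap 2310002F09Rik.

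Klk4, which matures tooth enamel, had the smallest fall of the 11. It held 24.0 to 44.6 CPM in WT mTEChi (median 34.2) and 17.1, 19.2, 9.93 and 14.6 CPM in KO mTEChi. The groups did not overlap, and the log2 change was −1.24 ± 0.26 (edgeR adjusted p = 0.00018).

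The pancreatic proteases were rare in WT mTEChi and had few counts left in KO mTEChi. Summed over libraries, the 6 trypsinogens had 230 counts in WT mTEChi and 8 in KO mTEChi, and the 4 elastases had 184 and 6. The trypsinogen sum was 8.93 to 17.1 CPM in WT and 0 to 2.51 CPM in KO mTEChi, without overlap. The elastase sum was 0.600 to 13.9 CPM and 0 to 0.835 CPM, and the lowest WT library lay within the KO range. Only Prss2 and Cela3b had enough counts for a test. The longest coding transcripts of the trypsinogens were 87.6% to 97.1% identical over 15 pairs, and counts may be split among them.

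Prss1 and Prss2 carry the trypsinogen result, and the 100 bases before their RefSeq start sites (GRCm38.p6, plus strand, chr6:41458830-41458929 and chr6:41521676-41521775) are printed with TATAAA, the sequence of a classical TATA box, in capitals.
Prss1: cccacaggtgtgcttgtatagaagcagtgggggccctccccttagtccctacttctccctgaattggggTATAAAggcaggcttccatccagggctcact
Prss2: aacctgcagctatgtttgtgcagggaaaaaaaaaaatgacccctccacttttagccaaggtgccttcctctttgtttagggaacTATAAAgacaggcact
All 4 trypsinogen promoters found hold TATAAA on either strand, against 9.64% of the members' entries, 0 of the 14 glandular kallikreins and 5.56% of all promoters. Prss1, cationic trypsinogen, was at 1.51 to 7.50 CPM in WT mTEChi (median 2.86, 64 counts) and at 0 in all 4 KO mTEChi libraries, at least 12.1-fold lower against a limit of 3 counts over the group. Prss2, the anionic trypsinogen, was at 1.80 to 7.50 CPM in WT mTEChi (median 6.30) and at 0.439, 0, 0.342 and 2.51 CPM in KO mTEChi. The groups overlapped at the last KO library, and Prss2 fell by 2.94 ± 0.97 (edgeR adjusted p = 0.014); without that library the change was −4.40. With a term for age as well as sex the adjusted p of Prss2 was 0.0708.

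Cela1, a pancreatic elastase, was at 0.600 to 5.00 CPM in WT mTEChi (median 3.0). Its KO mTEChi libraries held 0, 0, 0.342 and 0 CPM. A single count remained, a pooled ratio of 32.3 with a wide counting interval of 5.59 to 1298. Cela3b fell from a mean of 4.68 CPM to 0.207 CPM (edgeR adjusted p = 0.000222). It had passed the filter only through WT mTEChi and so was bound to be low elsewhere. Of its 50-base stretches, 19.2% are shared with other genes. All counting intervals and limits here cover counting error only.

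On chromosome 17, Prss34 and Prss29 had no counts left in any KO library. Prss34 (chr17:25298394-25300165), also called mast cell protease 11 and made by mast cells and basophils, and Prss29 (chr17:25318654-25322684), the implantation serine protease of uterine glands, lie either side of Prss28 on the plus strand. The 100 bases before the RefSeq start of each, chr17:25298294-25298393 and chr17:25318554-25318653, are shown for that reason. Capitals in Prss29 mark TATAAA, and the Prss34 window held none of the motifs searched.
Prss34: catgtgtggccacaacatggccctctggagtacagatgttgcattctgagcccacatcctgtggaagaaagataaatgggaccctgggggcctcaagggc
Prss29: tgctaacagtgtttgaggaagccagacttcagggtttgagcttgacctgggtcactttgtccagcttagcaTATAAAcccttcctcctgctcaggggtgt
Prss34 was at 9.0 to 32.0 CPM in WT mTEChi (median 16.4) and at 0 in all 8 KO libraries of both gates. It was at least 66.1-fold lower in KO mTEChi (edgeR adjusted p = 2.7e-09). Prss29 was at 19.8 to 37.5 CPM in WT mTEChi (median 28.2), again at 0 in all 8 KO libraries, and was at least 97.3-fold lower in KO mTEChi (edgeR adjusted p = 1.6e-08). Prss28, between them, had means of 2.93 CPM and 0.209 CPM (edgeR adjusted p = 0.000345). Its counts in KO mTEChi were all in replicate 4, without which the log2 change was −6.18. Prss34, Prss28 and Prss29 had passed the filter only through WT mTEChi and so were bound to be low elsewhere.

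Some genes of mast cells fell beside Prss34, and others did not. Of 8 mast cell markers, 7 were tested, of which 5 fell in KO mTEChi and Kit rose, beside 28% and 25.7% of all tested genes. Hdc had no call (0.43, edgeR adjusted p = 0.167). The 5 that fell had means of 0.0381 to 0.44 CPM in WT mTEClo and had enough counts for a test only through WT mTEChi. The mast cell proteases Cma1, Mcpt4 and Tpsab1 and the IgE receptor chain Ms4a2 had WT mTEChi means of 7.59, 9.69, 4.27 and 8.17 CPM and were at 0 in all KO mTEChi libraries. Tpsb2 went from 13.0 CPM to 0.171 CPM, and Cpa3, at 1.01 CPM and 0.0856 CPM, was not tested. The summed level of the list, carried by Hdc at 654 and 937 CPM and Kit at 179 and 306 CPM, was 762 to 986 CPM in WT and 1122 to 1342 CPM in KO mTEChi. Prss29 fell beside Prss34 and the 5 markers that fell. The part of mast cells in these results was not tested.

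The transmembrane proteases sit on epithelial surfaces, where they activate channels, receptors and other proteases. As a sum they moved little, from 368 to 435 CPM in WT mTEChi to 331 to 394 CPM in KO mTEChi, with overlap. Of 12 tested, 7 fell and 5 passed in neither direction, where 28% of all tested genes fell, with a median log2 change of −0.84. Of the 12, 3 had passed the filter only through WT mTEChi (Tmprss5, Tmprss11a and Tmprss11b). Of the other 9, 4 fell, with a median of −0.392, where 22.8% of all genes that passed in the same way fell. The sum was carried by Tmprss2 and Tmprss4. Tmprss2, which primes the spike proteins of coronaviruses, was at 140 to 199 CPM in WT mTEChi (median 171) and at 135, 159, 194 and 198 CPM in KO mTEChi. Of the KO libraries 3 lay within the WT range, with a log2 change of 0.01 ± 0.14 (edgeR adjusted p = 0.963).

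Tmprss4, a related epithelial protease, held 88.8 to 121 CPM in WT mTEChi (median 112) and 124, 129, 124 and 111 CPM in KO mTEChi (0.12 ± 0.13, edgeR adjusted p = 0.47). With the term for the 6 libraries it was higher in KO mTEChi, by 0.96, with an adjusted p of 7.8e-05. Together both genes made up 22% to 32.8% of the members' CPM in WT mTEChi and 44.4% to 47.7% in KO mTEChi. Without them the members summed to 644 to 836 CPM and 311 to 388 CPM.

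Tmprss6, the liver protease that restrains hepcidin, was at 11.4 to 28.6 CPM in WT mTEChi (median 20.7) and at 4.39, 3.27, 2.74 and 3.76 CPM in KO mTEChi. It fell without overlap, by 2.54 ± 0.31 (edgeR adjusted p = 8.18e-08). Tmprss7, a relative of matriptase, was at 5.58 to 11.4 CPM (median 7.80) in WT mTEChi and at 0, 2.05, 1.71 and 1.67 CPM in KO mTEChi (−2.64 ± 0.40, edgeR adjusted p = 2.69e-06). Tmprss5, Tmprss9 and Tmprss13 fell as well, with log2 changes of −2.71, −1.04 and −0.64, the last without a call when any of 4 single libraries was left out (adjusted p = 0.0673 to 0.135).

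The Tmprss11 genes, 7 neighbours at chr5:86231481-86745815 that encode airway and skin proteases, went different ways. Tmprss11a was at 7.42 to 12.6 CPM in WT mTEChi (median 8.21) and at 0.878, 0.818, 0.685 and 0.418 CPM in KO mTEChi. It fell by 3.61 ± 0.39 (edgeR adjusted p = 1.44e-08), a 12.9-fold difference of means. Tmprss11d, the human airway trypsin-like protease in its mouse form, was at 20.3 to 36.0 CPM (median 25.8) in WT mTEChi and at 21.9, 23.7, 13.3 and 13.8 CPM in KO mTEChi. Its groups overlapped, with a log2 change of −0.39 ± 0.26 (edgeR adjusted p = 0.2). Tmprss11b fell by 2.26 (−3.02 without replicate 4 of KO mTEChi), and the other 4 were not tested.

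Tmprss15 is enteropeptidase, the gut enzyme that activates trypsinogen. It was at 11.8 to 19.2 CPM in WT mTEChi (median 16.8) and at 16.7, 20.0, 22.6 and 27.6 CPM in KO mTEChi, with overlap (0.37 ± 0.22, edgeR adjusted p = 0.161). Tmprss3, a gene of the inner ear, also passed in neither direction (0.63 ± 0.30, adjusted p = 0.0811).

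**Figure D3:**
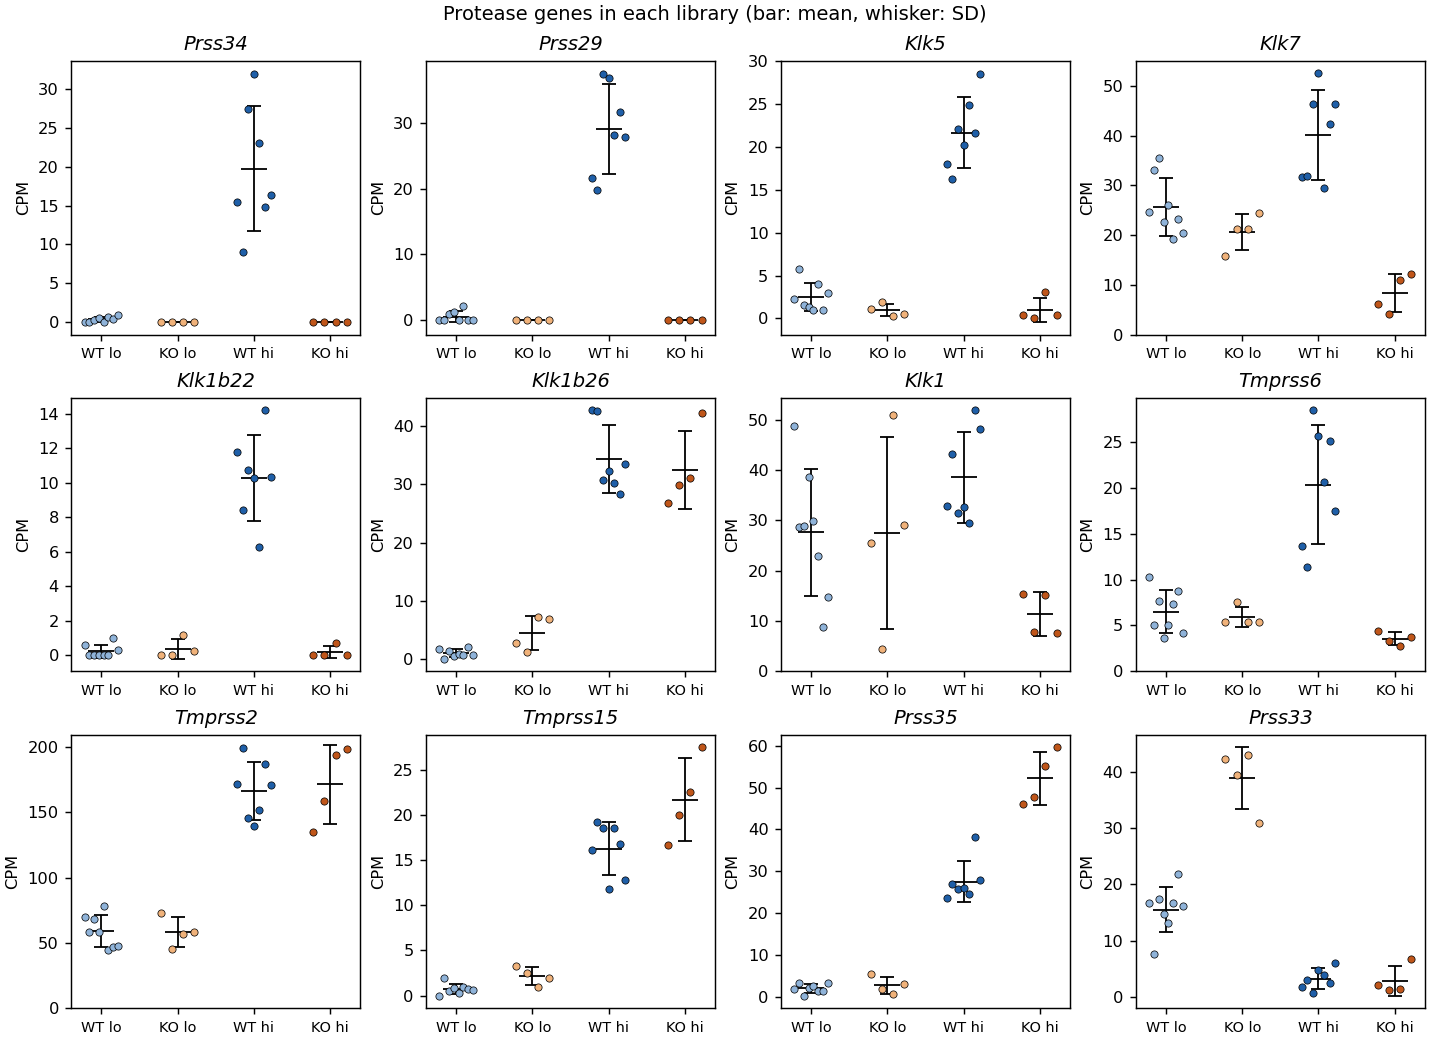
CPM of single members in each library (vertical axes, linear) by group (horizontal axes, WT and KO of mTEClo and mTEChi), with 1 point per library and bars for the mean and SD. Prss34 and Prss29 are at 0 in every KO library, Klk5 lies between 0 and 3.08 CPM in KO mTEChi, and Prss35 is above its WT range there.

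Of the 17 tested genes among the other Prss genes, 5 fell and 2 rose in KO mTEChi, beside 28% and 25.7% of all genes, and the median log2 change was −0.22. Of the 17, 4 had passed the filter only through WT mTEChi (Prss28, Prss29, Prss34 and Prss56). The other 13 fell in 1 case and rose in 2, beside 22.8% and 28.4% of all genes that passed in the same way. Both members that rose belong here. Prss35, a secreted protease-like protein that lacks the catalytic serine, was at 23.5 to 38.1 CPM in WT mTEChi (median 26.0) and at 46.1, 47.9, 55.1 and 59.7 CPM in KO mTEChi. All KO libraries were above all WT ones, a log2 change of 0.92 ± 0.21 (edgeR adjusted p = 0.000649). Prss50, a testis protease, was at 1.86 to 5.40 CPM (median 3.55) in WT mTEChi and at 7.02, 7.37, 7.19 and 6.68 CPM in KO mTEChi (1.21 ± 0.34, edgeR adjusted p = 0.00325). Of all tested genes, 18.2% lay above the WT range in every KO mTEChi library, as these 2 did.

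Besides the chromosome 17 neighbours, Prss37, a sperm protease needed for fertility, and Prss56, a protease of the retina, fell, with log2 changes of −2.0 and −3.19. Prss8, prostasin, which activates the epithelial sodium channel, passed in neither direction at means of 14.2 CPM and 17.1 CPM (0.28 ± 0.19, edgeR adjusted p = 0.22).

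In mTEClo the loss of Aire, itself at 19.6 to 128 CPM in WT mTEClo, moved fewer members. Their sum was 314 to 482 CPM in WT mTEClo (n = 8) and 333 to 438 CPM in KO mTEClo (n = 4). Of the 55 tested members 6 fell and 8 rose, against 9.69% and 12% of all tested genes. The shares of members are near those of all genes, and the median log2 change was 0.00 where that of all genes was 0.01. Every KO library lay below the WT range for 1 member and above it for 3, where 5.79% and 5.86% of all genes did so.

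The 6 that fell had also fallen in mTEChi, and 5 of them are kallikrein-related peptidases (Klk6, Klk10, Klk11, Klk13 and Klk14), the sixth being Tmprss7. The sum of the kallikrein-related peptidases was 57.4 to 142 CPM in WT mTEClo and 38.2 to 56.3 CPM in KO mTEClo. Klk10 was at 3.93 to 15.3 CPM in WT mTEClo (median 6.92) and at 4.33, 3.13, 0.596 and 0.243 CPM in KO mTEClo, and fell by 2.35 ± 0.48 (edgeR adjusted p = 0.000714). Replicate 1 lay within the WT range, and without it the change was −3.09.

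Klk6 was at 8.06 to 36.9 CPM in WT mTEClo (median 17.1) and at 10.8, 3.76, 0.596 and 3.16 CPM in KO mTEClo (−2.37 ± 0.51, edgeR adjusted p = 0.00197, and −3.12 without replicate 1). Klk11 was at 2.35 to 4.6 CPM (median 3.24) in WT mTEClo and at 1.62, 0.626, 0.298 and 0.728 CPM in KO mTEClo. It was the 1 member with every KO library below every WT library, and it fell by 2.16 ± 0.43 (edgeR adjusted p = 0.000601). Tmprss7 fell by 1.50 ± 0.44 (adjusted p = 0.0134). Klk14 had an adjusted p of 0.0453 and lost its call without any of 15 single libraries (0.0515 to 0.101), and Klk13, with a log2 change of −1.13 and an adjusted p of 0.0202, lost it without replicate 1 of KO mTEClo (0.0607).

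Of the 8 that rose in KO mTEClo, 3 were glandular kallikreins. Klk1b26 was at 0 to 2.01 CPM in WT mTEClo (median 0.687) and at 2.71, 1.25, 7.15 and 6.80 CPM in KO mTEClo, and rose by 2.37 ± 0.40 (edgeR adjusted p = 9.63e-05). Replicate 2 lay within the WT range. Klk1b1 was at 0 to 0.636 CPM (median 0.418) in WT mTEClo and at 1.1, 0.626, 2.68 and 0.729 CPM in KO mTEClo (2.07 ± 0.59, edgeR adjusted p = 0.0113). Klk1b3 rose by 1.82 (adjusted p = 0.0195). Without replicate 3 of KO mTEClo neither of these last genes was called (1.32 for Klk1b1, adjusted p = 0.219, and 1.31 for Klk1b3, adjusted p = 0.172).

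The other 5 were Prss genes and enteropeptidase. Prss33, a protease of macrophages and eosinophils, was at 7.63 to 21.8 CPM in WT mTEClo (median 16.4) and at 42.2, 39.4, 42.9 and 30.8 CPM in KO mTEClo, all above the WT range. It rose by 1.40 ± 0.26 (edgeR adjusted p = 0.000227). Prss41, a testis protease, was at 3.82 to 5.80 CPM (median 4.63) and at 8.12, 13.8, 8.04 and 9.96 CPM, also without overlap (0.96 ± 0.25, edgeR adjusted p = 0.00692). Both genes lie in the 7-gene locus at chr17:23833347-24045954. Some markers of other cells moved in the same libraries, in which 12% of all tested genes rose and 9.69% fell. Of 8 cortical epithelial genes 6 rose, their list summing to 441 to 546 CPM in WT and 607 to 702 CPM in KO mTEClo. Of 5 tested dendritic cell and macrophage genes Lyz2 rose, from 34.2 CPM to 88.9 CPM, and of 5 tested thymocyte genes Rag1 fell, by 2.36. Their part in these results was not tested.

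Prss53 was at 2.75 to 4.33 CPM in WT mTEClo (median 3.31) and at 4.33, 5.64, 11.6 and 14.3 CPM in KO mTEClo (1.54 ± 0.32, edgeR adjusted p = 0.000959). Its exons overlap Gm21974 and Zfp646 and it shares 79.5% of its 50-base stretches with other genes, so its counts are uncertain. Prss12, neurotrypsin, which cuts agrin at synapses, held 0.672 to 3.31 CPM (median 1.70) in WT mTEClo and 2.71, 7.51, 7.15 and 6.07 CPM in KO mTEClo (1.65 ± 0.38, edgeR adjusted p = 0.0022). Tmprss15 was at 0 to 1.91 CPM (median 0.636) in WT mTEClo and at 3.25, 2.50, 0.894 and 1.94 CPM in KO mTEClo (1.44 ± 0.46, edgeR adjusted p = 0.0249). Replicate 3 lay within the WT range, and the call was lost without replicate 1, 2 or 4 (adjusted p = 0.0531 to 0.0906).

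Replicates 3 and 4 of KO mTEClo are the older ones and among the 6 libraries. Without both, Prss33 (adjusted p = 0.00155), Prss41 (0.022), Tmprss15 (0.0185) and Klk13 (0.000604) kept their calls, and the other 10 did not, with 2 KO libraries left. The change was smaller by over 1.5-fold for 7 of the 10, such as Klk1b26 (1.03, adjusted p = 0.298) and Klk10 (−1.09, adjusted p = 0.11), but not for Prss12 (1.38), Klk14 (−1.87) or Tmprss7 (−2.02). With a term for age, Klk6, Klk11, Tmprss7 and Klk1b26 kept their calls and the other 10 did not. Of those 10, only Klk1b3 (0.92) and Prss53 (0.91) had changes smaller by over 1.5-fold.

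Whether the effect of the knockout differed between gates was tested as an interaction. It was lower in mTEChi than in mTEClo for 18 of the 55 tested members and higher for 0, against 14% and 10.8% of all tested genes. At an unadjusted p under 0.05 edgeR gave 26 and 0, and DESeq2 called 24 and 0 after adjustment. Of the 18, 9 are glandular kallikreins, and the median difference over the 12 tested glandular kallikreins was −2.73. Of these 12, 7 had passed the filter only through WT mTEChi, which by itself favours a lower effect in mTEChi. Among the 18 this holds for Klk1b3, Klk1b4, Klk1b5, Klk1b9, Klk1b22 and Klk5. Without replicates 3 and 4 of KO mTEClo 14 of the 18 calls were lost, 11 of them with a difference smaller by over 1.5-fold. Klk1b26 had no call in mTEChi and rose in mTEClo (difference −2.46 ± 0.44, edgeR adjusted p = 0.000126). Klk1b1 fell in mTEChi and rose in mTEClo (−3.36 ± 0.65, adjusted p = 0.00029), the only member called in opposite directions. Without replicate 3 of KO mTEClo its difference was −2.63 (adjusted p = 0.0147), and that of Klk1b22 was −4.88 and no longer called (adjusted p = 0.169). Leaving out 1 library gave larger differences for Klk5 (−4.58 without replicate 3 of KO mTEChi), Prss33 (−2.39 without replicate 4 of KO mTEChi) and Klk1b9 (−4.10 without replicate 1 of WT mTEClo). Both KO effects are taken against WT libraries of their own gate.

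Klk7 was at 19.2 to 35.4 CPM in WT mTEClo (median 23.9) and at 15.7, 21.3, 21.1 and 24.5 CPM in KO mTEClo, with replicate 1 below the WT range. Against its fall in mTEChi the difference was −1.98 ± 0.32 (edgeR adjusted p = 3.22e-05). Tmprss6 was at 3.67 to 10.3 CPM (median 6.21) and at 5.41, 7.51, 5.36 and 5.34 CPM in mTEClo (difference −2.42 ± 0.43, edgeR adjusted p = 0.000105). Klk1 was at 8.73 to 48.8 CPM in WT mTEClo (median 28.7) and at 25.4, 4.38, 50.9 and 29.1 CPM in KO mTEClo, a wide scatter in both. Its difference of −1.82 had an adjusted p of 0.0168, and of −1.36 with an adjusted p of 0.063 without replicate 3 of KO mTEClo. The calls of Klk5, Klk13, Klk1b22, Prss33, Prss36, Prss37 and Prss53 were likewise lost without some single library.

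In WT cells the gates themselves set the proteases apart. Of the 55 tested members, 41 were higher and 7 lower in mTEChi than in mTEClo, against 36.7% and 33.4% of all tested genes, and the median log2 difference was 2.08 against 0.00. The ranges of the libraries did not overlap for 31 of the higher and 4 of the lower members, and for 24.8% and 19.5% of all genes. Among glandular kallikreins 11 of 12 were higher, Klk1 alone passing in neither direction (0.48 ± 0.29, edgeR adjusted p = 0.15). Of the 36 members that pass the filter without WT mTEChi, 23 were higher and 7 lower, against 30.9% and 37.1% of such genes, and of the 5 such glandular kallikreins 4 were higher.

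Klk4 showed the smallest p among the members. It was at 0 to 2.30 CPM in WT mTEClo (median 0.128), far below its mTEChi range given above, a log2 difference of 6.36 ± 0.33 (edgeR adjusted p = 2.34e-16), or of 7.02 without replicate 1 of WT mTEClo. Klk1b26 was 5.10 ± 0.27 higher on this scale (adjusted p = 2.58e-16), Tmprss11d 4.84 ± 0.29 and Tmprss15 4.52 ± 0.27. Prss34 was at 0 to 0.899 CPM in WT mTEClo and Prss29 at 0 to 2.14 CPM, with log2 differences of 5.69 ± 0.36 and 5.41 ± 0.39. Tmprss2 and Tmprss4, at 44.9 to 78.1 CPM and 60.2 to 78.1 CPM in WT mTEClo, were also higher in mTEChi, by 1.47 ± 0.12 and 0.63 ± 0.11.

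The kallikrein-related peptidases divided here. Klk5 was 3.25 ± 0.29 higher in mTEChi, whereas Klk10, Klk11 and Klk13 passed in neither direction (0.13, −0.44 and 0.00). The trypsinogen Prss2 was another without a call, at 0.524 to 13.8 CPM in WT mTEClo (median 3.47) and with a log2 difference of 0.20 ± 0.53 (adjusted p = 0.745). Prss1 was at 0 to 0.899 CPM there, with 4 counts in all against 64 in WT mTEChi.

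The 7 members lower in WT mTEChi were all other Prss genes. Prss48 was at 8.90 to 13.9 CPM in WT mTEClo (median 12.3) and at 1.43 to 4.28 CPM in WT mTEChi (median 3.60), without overlap (−1.91 ± 0.20, edgeR adjusted p = 1.02e-09). Prss33 was at 0.714 to 6.07 CPM in WT mTEChi (median 3.0), below its mTEClo range (−2.19 ± 0.28). Prss41 and Prss53 followed at −1.44 ± 0.26 and −1.40 ± 0.36. Prss33, Prss41 and Prss53, all lower in mTEChi, are also among those that rose in KO mTEClo. Prss8, at 13.5 to 25.3 CPM in mTEClo (median 18.7) and 9.0 to 15.9 CPM in mTEChi (median 15.2), had a call (−0.37 ± 0.15, edgeR adjusted p = 0.0294) that RLE scaling ended, at an adjusted p of 0.075, as did leaving out any of 3 single libraries (0.0613 to 0.105).

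Ranked per kilobase of exon, the WT mTEChi members were led by Tmprss4 at 42.0 ± 4.24 CPM per kb (SD, n = 7), Klk1 at 35.8 ± 8.45, Klk1b11 at 30.2 ± 6.84, Klk1b9 at 29.3 ± 4.51 and Klk4 at 27.3 ± 6.17. Neighbours in this order differ by less than the larger of their SDs. In KO mTEChi the order was Tmprss4 at 47.1 CPM per kb, Klk1b11 at 28.1, Tmprss2 at 23.5, Klk1b26 at 23.4 and Prss35 at 15.2. Klk1, Klk1b9 and Klk4, which all fell, were among the first 5 in WT mTEChi and not in KO mTEChi.

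Other genes that work with these proteases gave mixed counts in KO mTEChi, to be read against the 28% of all genes that fell and the 25.7% that rose. Of 13 tested exocrine pancreas genes 9 fell and the other 4 had no call, with a median of −2.36. Of those that fell, Pnlip, Pnliprp1 and Zg16 had means of up to 0.478 CPM in the groups other than WT mTEChi. They had enough counts for a test only through WT mTEChi and so were bound to be low elsewhere. How many other genes of these lists passed the filter in this way was not counted. Their sum went from 187 to 276 CPM in WT to 37.3 to 86.9 CPM in KO, and Zg16, a zymogen granule protein, from 14.6 CPM to 0. The digestive protease Ctrb1 (chymotrypsinogen) fell by 3.77, whereas Ctrl, a chymotrypsin-like gene, rose by 1.17. The acinar transcription factors Bhlha15, Rbpjl and Nr5a2 had log2 changes of 0.07, 0.44 and 0.44 without a call (adjusted p = 0.113 to 0.865), and Ptf1a, at 2.08 CPM and 0.485 CPM, was not tested. Of 17 tested proteases of the same fold 7 fell and 3 rose, with a median of −0.28. Those that fell include Tpsab1, Tpsb2, Tpsg1, Gzma and Gzmb, with means of up to 0.874 CPM in the groups other than WT mTEChi. These too had enough counts for a test only through WT mTEChi. Gzmb of killer lymphocytes went from 16.2 CPM to 0, and St14 (matriptase), which works with Prss8, rose from 248 CPM to 362 CPM.

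Of 8 tested inhibitors 4 fell and 1 rose, with a median of −0.84. Slpi, an inhibitor of leukocyte elastase, fell from 26.4 CPM to 1.01 CPM, Spink10 from 12.3 CPM to 0.40 CPM, and Spint2, an inhibitor of matriptase and prostasin, rose from 192 CPM to 276 CPM. Of 12 tested substrates and receptors 4 fell and 3 rose, shares near those of all genes, with a median of −0.07. Kng1, the kininogen cut by Klk1, went from 18.4 CPM to 0.0856 CPM. Cdsn, the corneodesmosin cut by Klk5 and Klk7, went from 21.0 CPM to 2.11 CPM. Slpi, Spink10 and Kng1 had means of up to 1.35 CPM in the groups other than WT mTEChi. They had enough counts for a test only through WT mTEChi and so were bound to be low elsewhere. Scnn1g, a channel subunit cut by prostasin, rose from 18.5 CPM to 35.1 CPM, and F2rl1, a receptor cut by trypsin, from 75.9 CPM to 117 CPM.

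Some markers of other cells also differed between the mTEChi groups, where 28% of all tested genes fell and 25.7% rose. Of 5 tested thymocyte genes 4 fell, their list summing to 80.3 to 112 CPM in WT and 43.5 to 57.7 CPM in KO. Of 5 tested dendritic cell and macrophage genes 4 fell and Lyz2 rose, with list sums of 250 to 315 CPM and 304 to 349 CPM. Of 6 fibroblast genes 3 fell and 1 rose, and 2 of 3 tested endothelial genes fell. Of 8 cortical epithelial genes 3 fell and 3 rose, and of 3 tested B cell genes 1 fell and 1 rose. Of 11 mTEC genes 3 fell, Aire among them, while Epcam stood at 244 CPM and 224 CPM, and of 5 MHC class II genes 1 rose. Their part in the results above was not tested.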

How the data were processed

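The members and the gene lists were chosen with earlier results of these data known. Per the labels' protocols, Tn5 tagmentation was applied to cDNA primed by a mix of oligo dT and not-so-random oligonucleotides, so strand is not kept. The deposited table holds raw counts per Ensembl gene. The submitters' processing notes name HTSeq 0.11.2, STAR 2.7.3a, edgeR, fastp 0.20.0, Picard 2.21.1 and SAMtools 1.9, with the builds mm10 and GRCm38. A second deposited table, of normalized signal, holds 20236 genes. Each of its values equals the authors' count divided by 1 factor per library (largest difference 5.23e-12), and it was used only for an alternative scaling. Every column of per-sample values matched a sample (0 did not).

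Symbols, positions and overlaps came from GENCODE of GRCm38. Counts were fitted in edgeR 4.0.16 (R 4.3.3) over all 23 libraries with group and sex, after filterByExpr (minimum count 10), with TMM factors and robust quasi-likelihood. KO was compared with WT within mTEChi and within mTEClo, mTEChi with mTEClo in WT, and the KO effects with each other, with Benjamini-Hochberg adjustment over the 19310 genes. The SE is the size of the change over the square root of F. A group at 0 was given a limit of 3 counts, and exact intervals are at 95%. Alternatives included DESeq2 1.42.0, other scalings, age, a replicate block and leaving out each library. The fit was tested on simulated data. Motifs TTTAAA, TATTTAAA and TATAAA were searched in 100 bases before RefSeq starts.

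Members named with values were the 12 with the smallest p in KO mTEChi, those called higher in KO, up to 4 by smallest p for each other comparison and direction, the 4 most abundant in WT of each gate, and Prss1, Prss2, Cela1, Klk1, Klk5, Klk7, Tmprss2, Tmprss15 and Prss8. Other members are named where a small group was described, some after their values were seen.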

Additional observations from a re-analysis of the deposited data

Results flagged for a closer look

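In 4 of 104 groups of libraries tested, 1 library stood apart from its group by the gap to its nearest neighbour, where chance alone gives about 1 in 20. Tmprss6 was at 7.51 CPM in replicate 2 of KO mTEClo and at 5.34 to 5.41 CPM in the other 3. Prss35 was at 38.1 CPM in replicate 6 of WT mTEChi and at 23.5 to 27.9 CPM in the others, still under the lowest KO mTEChi value of 46.1 CPM. Prss8 was at 9.0 CPM in replicate 2 of WT mTEChi and at 13.9 to 15.9 CPM in the others. The transmembrane proteases summed to 223 CPM in replicate 1 of KO mTEClo and to 154 to 165 CPM in the other 3.

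For 18 members the effect of the knockout differed between the gates by the interaction test, always toward lower values in mTEChi. Some of them had passed the filter only through WT mTEChi, as given above. The log2 differences were −6.37 for Klk1b22, −3.93 for Klk1b5, −3.50 for Klk1b9, −3.36 for Klk1b1, −3.18 for Klk1b4, −2.84 for Klk1b16, −2.62 for Klk1b3, −2.46 for Klk1b26 and −1.82 for Klk1. Among the kallikrein-related peptidases they were −2.74 for Klk5, −1.98 for Klk7 and −1.71 for Klk13. They were −2.42 for Tmprss6, −1.64 for Tmprss9, −1.87 for Prss37, −1.69 for Prss53, −1.58 for Prss33 and −1.0 for Prss36. With few counts in mTEClo, the size of the fitted value of Klk1b22 depends on the prior count.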

How the results depend on the processing

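At an adjusted p under 0.01, 3 members were lower and 5 higher in KO mTEClo, and 11 had a lower knockout effect in mTEChi. Without a filter on low counts, 64 of 89 members were higher in WT mTEChi than mTEClo and 49 lower in KO mTEChi. With sex and age, 1 member was higher in KO mTEClo. With male libraries alone 4 were lower in WT mTEChi, and with only the groups compared 4 were higher in KO mTEClo. The term for the 6 libraries left 15 lower in KO mTEChi, 3 lower and 4 higher in KO mTEClo, and 1 difference between gates that was higher, Tmprss4, which reversed from −0.04 to 0.40 (adjusted p = 0.0369). Without replicates 3 and 4 of KO mTEClo, 2 were lower and 4 higher in KO mTEClo and 7 had a lower effect in mTEChi. Both of these alternatives were chosen after seeing the data, and the cause was not tested. Leaving out 1 library at a time gave 29 to 41 lower and 2 higher members in KO mTEChi, 4 to 8 lower and 8 to 10 higher in KO mTEClo, 6 to 8 lower and 36 to 46 higher in WT mTEChi, and 16 to 20 lower and 0 higher differences between gates. DESeq2 called 34 lower and 2 higher in KO mTEChi, and 24 lower and 0 higher differences between gates. Of the 35 calls in KO mTEChi, 28 held under every planned setting, 6 held wherever the gene was still tested (Cela3b, Klk11, Prss28, Prss37, Prss56 and Tmprss5), and Prss2 was lost. Leaving out single libraries, 29 held throughout, 5 wherever tested (the same without Prss37), and Tmprss13 was lost. Correlations of same-numbered libraries ran from −0.19 to 0.20, and for no 2 groups compared were all of them over 0.1, so the numbers were not taken as pairs. With a replicate block 33 members were lower and 3 higher in KO mTEChi, 6 lower and 7 higher in KO mTEClo, 6 lower and 41 higher in WT mTEChi, and 16 had a lower difference between gates. Depth limits the 34 untested members.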

Other observations

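Of the 11 pseudogenes left out of the members, 1 had enough counts for a test. Klk2-ps, in the same kallikrein locus, was at 61.8 to 103 CPM in WT mTEChi (median 80.1) and at 9.65, 9.82, 12 and 14.2 CPM in KO mTEChi, without overlap. Its log2 change was −2.84 ± 0.29 (edgeR adjusted p = 1.02e-08), and its level in WT mTEChi was 6.62 higher than in WT mTEClo on the same scale. Klk1b18-ps was at 0 in every library.

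The number of proteases seen was also counted at equal depth. Brought to the depth of the smallest library, WT mTEChi libraries held 75.7 to 78.3 members with a count, KO mTEChi libraries 48.0 to 55.4, WT mTEClo libraries 46.3 to 53.1 and KO mTEClo libraries 45.7 to 51.0.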
